A study of Mus musculus with 16 samples.

Results

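A set of endothelial receptor and activation genes was followed in gastrocnemius muscle, chosen by symbol from the deposited tables: 10 of the 35415 genes listed, all 10 of which were among the 14749 genes tested. They were 3 growth factor receptors (Kdr, Flt1 and Tek), 3 proteins of cell contacts (Pecam1, Cdh5 and Cldn5) and 4 genes of secretory granules, leukocyte adhesion and activation (Vwf, Selp, Icam1 and Apold1). The muscle came from 16 wild type male BALB/c mice in 4 groups of 4. The C group was tumor-free and untrained, and the E group was tumor-free and ran on a treadmill (speed 14 m/min) in sessions of 60 min, held 6 days a week over 4 weeks. The T group was untrained and carried tumors of CT26, a colon carcinoma cell line that comes from BALB/c mice, after injection under the skin of the hind limb, and the TE group had both the tumor and the training. All mice were aged 8 weeks when bought, the C and E mice received saline in place of tumor cells, and untrained mice were put on a treadmill that did not move. The sequenced animals were 4 of the 12 in each group, and a single batch number is given for all libraries.

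Endothelial cells line every vessel, and in skeletal muscle most of them belong to the capillaries that run along the fibers. Kdr (VEGFR2) is the main signaling receptor for VEGF-A on these cells, Flt1 (VEGFR1) binds the same ligand and, in part as a soluble form, holds it away from Kdr, and Tek (TIE2) is the receptor of the angiopoietins. Pecam1 (CD31), Cdh5 (VE-cadherin) and Cldn5 hold neighboring endothelial cells together. Vwf and Selp (P-selectin) are stored in the Weibel-Palade granules of endothelial cells and in platelets, Icam1 is a ligand for leukocyte integrins that inflammatory cytokines induce, and Apold1 is an immediate early gene of endothelial cells.

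Library totals were between 35628211 and 37635741 counts, so 3 counts in a library corresponded to 0.07971 to 0.0842 CPM (counts scaled by library total), far below the level of all 10 genes. The myofiber markers summed to between 131000 and 161000 CPM and 26 endothelial identity genes to between 1020 and 1450 CPM, so the RNA was that of muscle with its vessels. Some libraries stood apart. Markers of lymph node and high endothelial venules summed to 44.3 CPM in C replicate 3, 41.6 CPM in E replicate 1 and 130 CPM in TE replicate 4, against group medians of 15.2, 21.0 and 8.27 CPM, and 24 immediate early and shear response genes summed to 1390 CPM in T replicate 3 and 1240 CPM in TE replicate 3, against medians of 922 and 919 CPM, although the tumor-free E replicates 1 and 4 had 1230 and 1140 CPM. Values that moved most without one of these libraries are given with and without it.

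Per length of transcript, as FPKM averaged over the 16 libraries, the junction genes were the most abundant. Pecam1 stood at 52.2 FPKM and Cdh5 at 48.4 FPKM, followed by Cldn5 at 22.5, Kdr at 14.2, Tek at 13.8 and Flt1 at 11.8 FPKM. The granule, adhesion and activation genes were lower, with Vwf at 4.51, Icam1 at 3.63, Selp at 3.01 and Apold1 at 2.52 FPKM. The range over single libraries was 39.1 to 57.5 FPKM for Cdh5, whereas it was 0.604 to 15.2 FPKM for Selp and 9.12 to 62.7 FPKM for Cldn5.

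RefSeq sequences (GRCm38.p6) of the bases just before the transcription start were found for 7 of the 10 genes. Those of Kdr and Flt1, receptors for the same ligand of which Kdr passed a test and Flt1 did not, and of Selp and Icam1, the adhesion genes whose values varied together, are given here, as the 250 bases before the start on the gene's own strand. Capitals mark the GC box (GGGCGG), the AP-1 site (TGANTCA), the STAT site (TTCNNNGAA) and the NF-κB consensus, each searched on both strands.
Kdr (chr5:75978456-75978705, - strand): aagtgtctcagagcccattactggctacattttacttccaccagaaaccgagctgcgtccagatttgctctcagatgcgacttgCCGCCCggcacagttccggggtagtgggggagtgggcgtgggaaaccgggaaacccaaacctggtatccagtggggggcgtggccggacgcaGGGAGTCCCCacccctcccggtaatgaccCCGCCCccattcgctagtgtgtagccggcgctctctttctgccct
Flt1 (chr5:147726012-147726261, - strand): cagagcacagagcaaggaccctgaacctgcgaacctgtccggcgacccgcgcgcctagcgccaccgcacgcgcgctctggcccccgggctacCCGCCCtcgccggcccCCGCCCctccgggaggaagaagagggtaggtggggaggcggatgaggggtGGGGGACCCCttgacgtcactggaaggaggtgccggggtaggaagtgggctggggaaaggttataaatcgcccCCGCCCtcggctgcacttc
Selp (chr1:164115014-164115263, + strand): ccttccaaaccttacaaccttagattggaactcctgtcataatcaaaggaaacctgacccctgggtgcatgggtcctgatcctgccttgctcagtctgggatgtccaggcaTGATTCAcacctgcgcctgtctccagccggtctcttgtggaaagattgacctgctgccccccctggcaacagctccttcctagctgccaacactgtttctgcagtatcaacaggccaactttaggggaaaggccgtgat
Icam1 (chr9:21015690-21015939, + strand): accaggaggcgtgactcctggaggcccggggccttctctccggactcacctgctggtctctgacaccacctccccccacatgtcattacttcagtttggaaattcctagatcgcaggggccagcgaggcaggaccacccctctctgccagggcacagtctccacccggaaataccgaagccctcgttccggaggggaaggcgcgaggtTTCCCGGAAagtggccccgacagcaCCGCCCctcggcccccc
The Kdr sequence held GC boxes at -166 and -45 and an NF-κB match at -74, and the Flt1 sequence held GC boxes at -158, -142 and -19 and an NF-κB match at -92. In Selp an AP-1 site stood at -139, and in Icam1 a STAT site at -42 and a GC box at -17. Among 32536 mouse promoter sequences of the same length, 33.0% held a GC box, 7.04% a STAT site, 6.73% an AP-1 site and 3.92% the NF-κB consensus. The ETS core GGAA, which overlaps the STAT site of Icam1 and is left in lower case, occurs in 93.4% of them. Of the other 3 sequences found, that of Cldn5 had a GC box at -45 and that of Apold1 a STAT site at -83, and that of Tek held none of these 4 motifs. These matches describe letters and not binding. Only exact matches were marked, so a sequence without a mark, such as Icam1 for NF-κB, can still hold a site that differs by a base.

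Of the receptors, Kdr was lower in tumor-bearing mice, whereas Flt1 and Tek passed the test in no comparison. Kdr (chromosome 5, 76093487 to 76139884, minus strand, GRCm39) was at 100.4, 125.7, 125.5 and 143.6 CPM in the C mice and at 77.18, 62.27, 80.45 and 89.35 CPM in the T mice. In the trained mice it was at 142.0, 157.6, 153.8 and 148.1 CPM without a tumor and at 120.0, 72.57, 105.9 and 73.48 CPM with one. Every T mouse was below every C mouse and every TE mouse below every E mouse, although TE replicates 1 and 3 reached the range of the C mice. Compared with the C group, Kdr fell by 0.68 on the log2 scale in the T group (standard error (SE) 0.149, adjusted p = 0.0457 by the quasi-likelihood F test of edgeR, after Benjamini-Hochberg adjustment over all tested genes, n = 4 a group). This call was close to the threshold of 0.05. It was kept in 5 of the 16 fits that left out 1 library, those without C replicate 1, T replicate 4 or TE replicates 1, 2 or 4, and lost in the other fits, in which the log2 difference was between -0.702 and -0.592 and the adjusted p between 0.0503 and 0.153. Compared with the E group, the TE group gave -0.69 (SE 0.149, edgeR adjusted p = 0.0757), and of the fits without 1 library this passed in that without TE replicate 1 (-0.841, edgeR adjusted p = 0.0177). The average of these comparisons, named the tumor average here, uses all 16 mice, and by it Kdr fell by 0.69 on the log2 scale (SE 0.105, edgeR adjusted p = 0.00233). This call held in each of the 16 fits without 1 library, at -0.76 to -0.634. In bulk muscle, fewer cells of a type and less RNA per cell cannot be told apart.

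Flt1 (chromosome 5, 147498414 to 147662826, minus strand) was at 145.2, 163.9, 112.9 and 128.3 CPM in the C mice, and at 181.5, 152.4, 216.5 and 145.1 CPM in the T mice. It was at 122.1, 196.6, 153.0 and 172.3 CPM in the E mice, and at 191.8, 169.4, 195.0 and 195.7 CPM in the TE mice. The groups overlapped in both pairs, with the higher values on the side of the tumor, and the log2 difference was 0.34 (SE 0.144) in untrained and 0.22 (SE 0.144) in trained mice, with edgeR adjusted p of 0.291 and 0.677. Without T replicate 3 the Flt1 difference in untrained mice was 0.211, and in trained mice it was 0.112 without E replicate 1 and 0.335 without E replicate 2. Tek (chromosome 4, 94627291 to 94763224, plus strand) was at 51.7, 64.8, 55.94 and 57.22 CPM in the C mice and ran from 47.46 to 95.53 CPM in the T mice, from 61.24 to 78.82 CPM in the E mice and from 54.29 to 87.25 CPM in the TE mice. Its log2 difference with the tumor was 0.23 in untrained mice (edgeR adjusted p = 0.569), or 0.0167 without T replicate 3, and -0.0037 in trained mice (edgeR adjusted p = 0.997), and the sign of the latter turned in 8 of the 16 fits without 1 library (up to 0.116, without TE replicate 2).

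**Figure D1:**
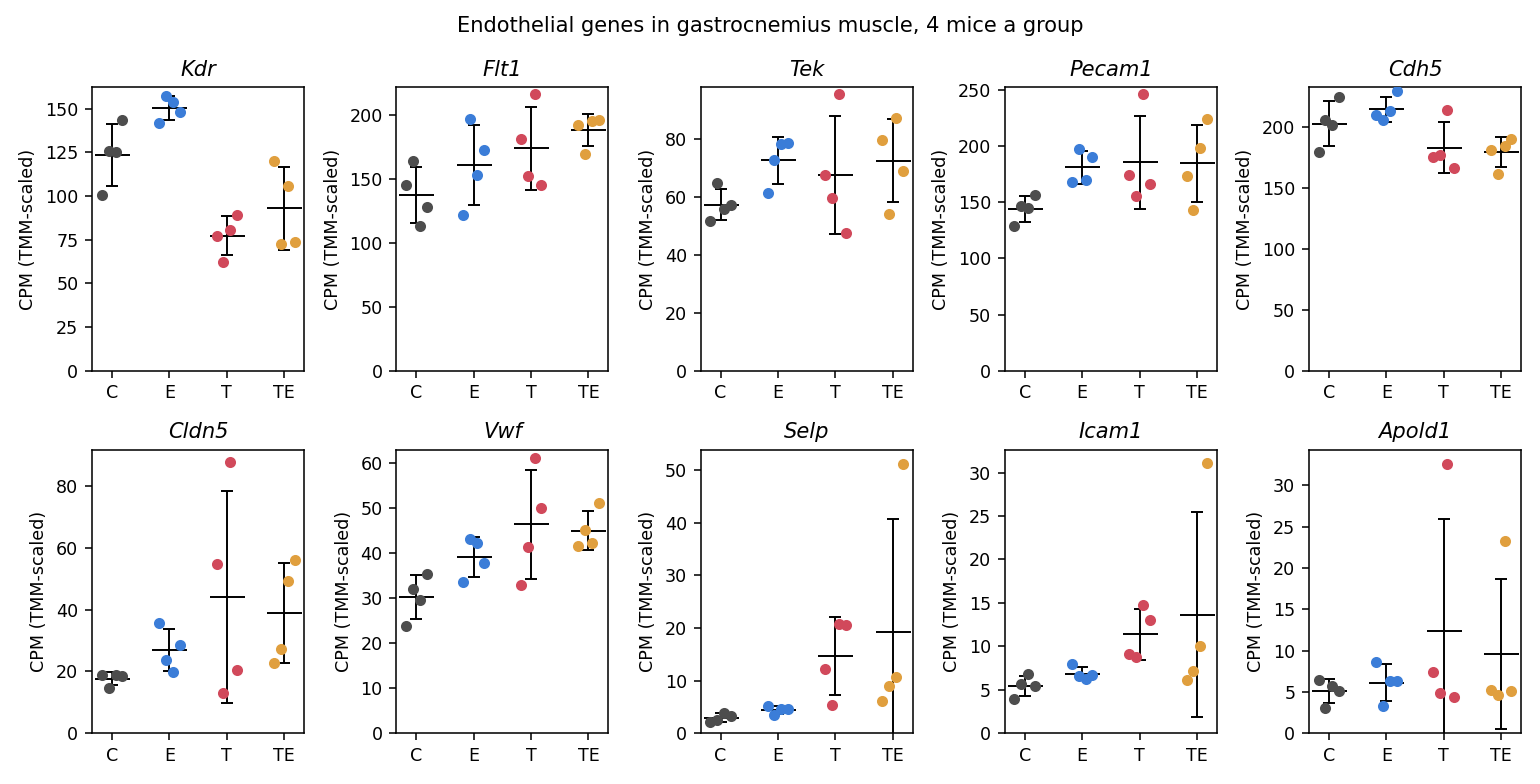
Level of each of the 10 genes in every library, in CPM scaled by TMM factors, for the control (C), trained (E), tumor (T) and tumor and trained (TE) groups. Points are mice, long lines are means and error bars are 1 SD over 4 mice, drawn no lower than 0. Kdr lies lower in T (62.27 to 89.35 CPM) than in C (100.4 to 143.6 CPM), Selp is higher in all tumor-bearing mice than in any tumor-free mouse, and single mice lead the Selp, Icam1 and Apold1 panels.

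Among the 3 junction genes 0 passed edgeR's test in any comparison (by the tumor average 2 had an unadjusted p under 0.05, and DESeq2 called 1, Cdh5). Cdh5 (chromosome 8, 104828231 to 104871143, plus strand), the adhesion molecule of endothelial adherens junctions, was the only other one of the 10 whose values were lower with the tumor in both training states. It was at 179.4, 205.4, 201.7 and 224.8 CPM in the C mice and at 175.3, 177.0, 213.9 and 166.2 CPM in the T mice. It was at 210.3, 205.4, 213.3 and 229.3 CPM in the E mice and at 181.3, 161.7, 184.8 and 190.2 CPM in the TE mice. All TE mice were below all E mice, and C and T overlapped. The log2 difference was -0.15 (SE 0.0835) in untrained and -0.26 (SE 0.0835) in trained mice, and the tumor average of -0.20 (SE 0.059) had an edgeR adjusted p of 0.109. Without T replicate 3 the tumor average was -0.244 (edgeR adjusted p = 0.0235), and DESeq2 also called it, with -0.20 (DESeq2 adjusted p = 0.039).

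Pecam1 (chromosome 11, 106543689 to 106641454, minus strand), which endothelial cells share with leukocytes and platelets, was at 128.7, 146.5, 144.9 and 156.6 CPM in the C mice and at 174.4, 155.4, 246.5 and 166.5 CPM in the T mice. The E mice were at 167.6, 197.2, 169.9 and 190.3 CPM and the TE mice at 173.2, 143.0, 198.2 and 223.7 CPM. The C group was the low one, with all E mice and all but 1 T mouse above it. The log2 difference was 0.37 for T against C (SE 0.138, edgeR adjusted p = 0.231), 0.33 for E against C (SE 0.138, edgeR adjusted p = 0.300) and 0.026 for TE against E (SE 0.137, edgeR adjusted p = 0.973). Without T replicate 3, the highest of the 16 mice, the first of these was 0.195.

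Cldn5 (chromosome 16, 18595597 to 18597012, plus strand), a claudin of tight junctions, spread widely among tumor-bearing mice. It was at 18.78, 14.68, 18.7 and 18.55 CPM in the C mice and at 35.71, 23.57, 19.95 and 28.53 CPM in the E mice. It was at 54.65, 13.13, 87.79 and 20.53 CPM in the T mice and at 22.79, 27.33, 49.26 and 55.98 CPM in the TE mice. The T group thus held both the lowest and the highest mouse of the series. The log2 difference of T against C was 1.32 (SE 0.433, edgeR adjusted p = 0.174). It was 0.729 without T replicate 3, the mouse with the highest value, and 1.62 (edgeR adjusted p = 0.0359) without T replicate 2, the mouse with the lowest. The tumor average was 0.92 (SE 0.303, edgeR adjusted p = 0.163), and 1.07 (edgeR adjusted p = 0.0354) without T replicate 2. It was 0.631 without T replicate 3 and 0.515 without T replicate 3 and TE replicate 4. The log2 difference of TE against E was 0.53 (SE 0.425, edgeR adjusted p = 0.751), and 0.307 without TE replicate 4.

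Selp showed the largest difference of the 10. Selp (chromosome 1, 163942833 to 163977595, plus strand) was at 2.158, 2.465, 3.94 and 3.325 CPM in the C mice and at 5.097, 3.411, 4.557 and 4.643 CPM in the E mice. It was at 12.15, 5.39, 20.71 and 20.61 CPM in the T mice and at 6.165, 9.054, 10.73 and 51.19 CPM in the TE mice. All 8 tumor-bearing mice were above all 8 tumor-free mice, with the T 2 value of 5.39 CPM close to the highest E value of 5.097 CPM. For this, and for the separations of Kdr, Cdh5 and Icam1 with the tumor, the share over all tested genes was not counted. By the tumor average Selp rose by 2.21 on the log2 scale (SE 0.393, edgeR adjusted p = 0.00715), and this call held in each of the 16 fits without 1 library, at 1.64 to 2.36. The log2 difference was 2.31 in untrained mice (SE 0.564, edgeR adjusted p = 0.0730) and 2.12 in trained mice (SE 0.547, edgeR adjusted p = 0.137). The untrained comparison passed when T replicate 2 (2.58, edgeR adjusted p = 0.0269), TE replicate 1 (2.30, edgeR adjusted p = 0.0493) or TE replicate 4 (2.30, edgeR adjusted p = 0.00422) was left out. Without TE replicate 4, the library with 130 CPM of lymph node and high endothelial venule markers, the trained comparison gave 0.973 (edgeR adjusted p = 0.446). Without the 3 libraries high in those markers, the tumor average of Selp was 1.75 (edgeR adjusted p = 0.00936).

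Icam1 (chromosome 9, 20926672 to 20940113, plus strand) was at 3.966, 5.653, 6.774 and 5.469 CPM in the C mice and at 9.089, 8.79, 14.74 and 12.98 CPM in the T mice. It was at 7.935, 6.575, 6.203 and 6.721 CPM in the E mice and at 6.165, 7.131, 10.1 and 31.15 CPM in the TE mice. All T mice were above all C mice, whereas TE and E overlapped and 1 TE mouse was below all E mice. The tumor average was 1.03 (SE 0.270, edgeR adjusted p = 0.0735), with 1.06 in untrained and 0.99 in trained mice. Without TE replicate 4 it was 0.625 and passed (edgeR adjusted p = 0.0405), and the trained comparison alone was then 0.193. The tumor average also passed without TE replicate 1 (1.15, edgeR adjusted p = 0.0294) and without TE replicate 2 (1.13, edgeR adjusted p = 0.0452), and the untrained comparison passed without TE replicate 4 (1.06, edgeR adjusted p = 0.0182).

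Vwf (chromosome 6, 125523737 to 125663642, plus strand), the clotting protein that endothelial granules release, was at 23.85, 31.99, 29.68 and 35.48 CPM in the C mice and at 33.01, 41.46, 61.13 and 50.09 CPM in the T mice. It was at 33.55, 43.08, 42.36 and 37.95 CPM in the E mice and at 41.66, 45.13, 42.3 and 51.11 CPM in the TE mice. Higher values were on the side of the tumor, and 3 T mice were above all C mice. The log2 difference was 0.62 for T against C (SE 0.154, edgeR adjusted p = 0.0741), 0.20 for TE against E (SE 0.153, edgeR adjusted p = 0.738) and 0.41 for the tumor average (SE 0.109, edgeR adjusted p = 0.0761). Without T replicate 1 the first and the last passed, at 0.75 (edgeR adjusted p = 0.0237) and 0.475 (edgeR adjusted p = 0.0218), and without T replicate 3 they were 0.454 and 0.328.

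Apold1 (chromosome 6, 134958681 to 134963810, plus strand) was high in a pair of tumor-bearing mice. It was at 6.502, 3.081, 5.721 and 5.084 CPM in the C mice, at 8.618, 3.247, 6.33 and 6.343 CPM in the E mice, at 7.415, 4.92, 32.58 and 4.338 CPM in the T mice, and at 5.269, 4.68, 23.24 and 5.165 CPM in the TE mice. T replicate 3 and TE replicate 3, the mice with the high values, were also those with the highest sums of immediate early and shear response genes, whereas E replicate 1, with a like sum, had 8.618 CPM of Apold1. The log2 difference was 1.28 for T against C (SE 0.614, edgeR adjusted p = 0.360) and 0.12 without T replicate 3. For TE against E it was 0.64 (SE 0.607, edgeR adjusted p = 0.792) and -0.283 without TE replicate 3. The part of that list in these values was not tested.

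Over the 10 genes together, 1 passed in T against C, where 0.678% of all tested genes passed, and 7 had an unadjusted p under 0.05, as did 14.2% of all tested genes. DESeq2 called 3 of the 10 there (Kdr, Vwf and Selp) and 2.81% of all genes. The median log2 difference of the 10 was 0.492, with 8 higher and 2 lower, and that of all tested genes was -0.00125. Without T replicate 3 the values of Pecam1, Flt1, Tek and Apold1 were 0.195, 0.211, 0.0167 and 0.12, and the median of the 10 was lower. For TE against E, 0 of the 10 passed by edgeR (4 had an unadjusted p under 0.05, as did 9.23% of all tested genes, and DESeq2 called 2, Kdr and Selp, with 1.19% of all genes), where 0.231% of all tested genes passed, and the median was 0.212. The genes that set this median, Flt1 and Vwf, had 0.112 and 0.132 without E replicate 1. By the tumor average 2 of the 10 passed and 8 had an unadjusted p under 0.05, where 1.36% and 14.2% of all tested genes did, with a median of 0.345. DESeq2 called 5 of the 10 by the tumor average (Kdr, Cdh5, Vwf, Selp and Icam1) and 3% of all genes. The 10 genes were chosen with earlier results of these data known, so these counts are a description and not a test of the set.

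**Figure D2:**
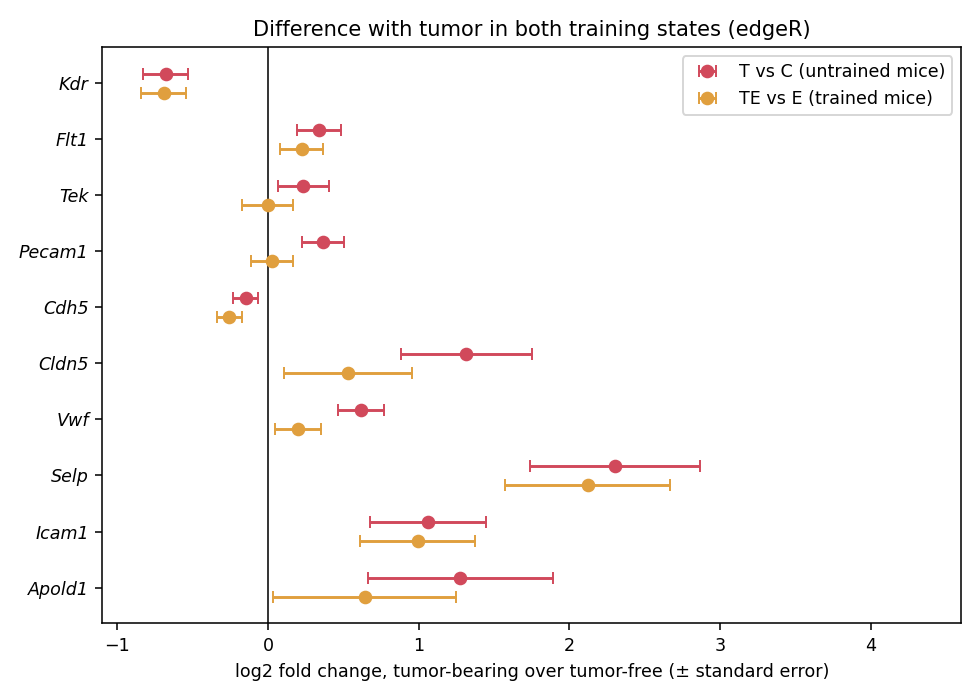
Log2 fold change of each of the 10 genes in tumor-bearing over tumor-free mice, for untrained mice (T against C) and trained mice (TE against E). Points are edgeR estimates and bars are ± 1 SE (n = 4 mice a group). Kdr lies at -0.68 and -0.69 in the 2 comparisons and Selp at 2.31 and 2.12, whereas the bars of Tek and Pecam1 cross 0 in trained mice.

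Training by itself was set against rest in both tumor states. In E against C all 10 genes had higher values, from 0.081 (Cdh5, 0.0266 without C replicate 1) to 0.61 (Cldn5) on the log2 scale, with a median of 0.328. The Apold1 value of 0.27 was 0.0591 without E replicate 1. By edgeR 0 passed, as 0.0881% of all tested genes did, the smallest adjusted p was 0.293 (Vwf), 2 had an unadjusted p under 0.05, as did 14.2% of all tested genes, and DESeq2 called 0, with 1.95% of all genes. All E mice were above all C mice for Pecam1 and Cldn5, as they were for 5.06% of all tested genes. In the same comparison the pericyte and smooth muscle markers had higher values for 12 of 12 genes (median 0.339) and the fibroblast markers for 7 of 7 (median 0.505), with 0 passing by edgeR in either list (9 and 7 had an unadjusted p under 0.05, and DESeq2 called Pdgfrb, Rgs5, Kcnj8 and Acta2 in the first and Pdgfra and Dpt in the second, named after their values were seen), whereas the 26 endothelial identity genes had a median of 0.013. The adipocyte markers were higher for 7 of 7 genes (median 1.44, 4 with an unadjusted p under 0.05) and the lymphatic endothelial markers for 7 of 7 (median 0.332, 2 with an unadjusted p under 0.05), and 0 passed in either list by edgeR or DESeq2. The part of these cell types in the values of the 10 genes was not tested.

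In TE against T, the comparison of training among tumor-bearing mice, 5 of the 10 genes were higher and 5 lower, from -0.36 (Apold1, 0.791 without T replicate 3) to 0.39 (Selp). By edgeR 0 of them passed, 0 had an unadjusted p under 0.05 and DESeq2 called 0 of the 10. Of all tested genes, 0% passed by edgeR, 5.88% had an unadjusted p under 0.05 and DESeq2 called 0.0294%. Kdr was 0.27 higher (SE 0.149, unadjusted p = 0.0914 and edgeR adjusted p = 0.860) and 0.119 higher without TE replicate 1, with TE replicates 1 and 3 above all T mice and TE replicates 2 and 4 within their range. The Selp and Icam1 values of 0.39 and 0.26 rested on TE replicate 4, and without it they were -0.758 and -0.540. In the same comparison the lymph node and high endothelial venule markers were higher for 9 of 9 tested genes (7 with an unadjusted p under 0.05, 0 passing by edgeR, and Glycam1 called by DESeq2), with sums of 5.16 to 10.7 CPM in T and 7.04 to 130 CPM in TE, and the macrophage and monocyte markers were lower for 10 of 11. TE replicate 4 held the 130 CPM, and TE replicates 1 to 3 had lymph node sums of 7.85, 8.69 and 7.04 CPM, within the T range. Glycam1, Madcam1 and Chst4 had 0 counts in every T library, so no median fold is given for the lymph node list. In T against C that list was lower for 8 of 9 genes (6 with an unadjusted p under 0.05), with sums of 8.75 to 44.3 CPM in C. By the average of both training comparisons, 0 of the 10 passed by edgeR, where 0.00678% of all tested genes did (1 of the 10 had an unadjusted p under 0.05, Kdr with 0.27, SE 0.105, as did 10.8% of all tested genes, and DESeq2 called 0, with 0.735% of all genes). The interaction of tumor and training, tested as the difference between TE minus T and E minus C, was below 0 for all 10 genes, from -0.79 (Cldn5, SE 0.603) to -0.014 (Kdr, SE 0.210), but without T replicate 3 for 5 of the 10 (Cldn5 -0.197). By edgeR 0 of the 10 passed, as 0% of all tested genes did, the smallest adjusted p was 0.572, 0 of the 10 had an unadjusted p under 0.05 (9.21% of all tested genes did) and DESeq2 called 0 of the 10 and 0.122% of all genes. In the same interaction the pericyte and smooth muscle markers were lower for 12 of 12 genes (median -0.428, 7 with an unadjusted p under 0.05), the fibroblast markers for 7 of 7 (median -0.758, 4 with an unadjusted p under 0.05) and the macrophage and monocyte markers for 10 of 11 (median -0.479, 0 with an unadjusted p under 0.05). The adipocyte markers were lower for 6 of 7 genes (median -1.7) and the platelet markers for 4 of 4 (median -0.565), each with 0 at an unadjusted p under 0.05, whereas the lymph node and high endothelial venule markers were higher for 9 of 9 (6 with an unadjusted p under 0.05, with TE replicate 4 the only TE library high in their sum). In these 6 lists 0 passed by edgeR and DESeq2 called Glycam1, and the part of these cells was not tested. The comparisons share groups, so their directions are not independent of each other.

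Ordered by group mean, C was the lowest group for 8 of the 10 genes, and the exceptions were Kdr with T lowest and Cdh5 with TE lowest. The highest group was E for Kdr, Tek and Cdh5, TE for Flt1, Selp and Icam1, and T for Pecam1, Cldn5, Vwf and Apold1. Most of the highest ranks changed without 1 of the libraries that stood apart. The lowest changed only for Cdh5 and Apold1. Without TE replicate 4 the TE means of Selp and Icam1 were 8.65 and 7.80 CPM, under 14.7 and 11.4 CPM in T, and TE led for Tek. Without T replicate 3 the T means of Cldn5 and Apold1 were 29.4 and 5.56 CPM, under 38.8 and 9.59 CPM in TE, TE also led for Pecam1 and Vwf, and T was lowest for Cdh5. Without TE replicate 3 TE was lowest for Apold1, and without E replicate 1 the Pecam1 means of E, T and TE lay between 185 and 186 CPM. Groups next to each other in these orders overlapped in their mice with 4 exceptions, which were C and E for Pecam1 and Cldn5 and E and T for Selp and Icam1. These were 4 of 30 such pairs, where 1.78% of those of all tested genes did not overlap.

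Each gene was also set against 26 other endothelial identity genes of the same library, as the log2 CPM of the gene minus the mean log2 CPM of the 26. That mean was 5.03 ± 0.165 in C, 5.08 ± 0.056 in E, 5.08 ± 0.143 in T and 5.11 ± 0.0948 in TE (SD, n = 4). The median of the 26 ran from 4.92 to 5.14 in E and from 4.80 to 4.91 in TE, so that by the median all TE mice were below all E mice, whereas C and T averaged 4.97 and 4.93. Relative to them Kdr differed by -0.726 between T and C and by -0.754 between TE and E, with ranges of 1.75 to 2.07 in C, 0.951 to 1.57 in T, 2.12 to 2.20 in E and 1.05 to 1.75 in TE. Cdh5 differed by -0.196 and -0.286, Flt1 by 0.287 and 0.216, Icam1 by 0.996 and 0.637, and Selp by 2.09 and 1.56. Without TE replicate 4 the trained values of Icam1 and Selp were 0.147 and 0.925, and without E replicate 1 that of Flt1 was 0.112. With the median of the 26 in place of their mean, the Kdr differences were -0.639 and -0.573, those of Cdh5 were -0.109 and -0.104, and those of Flt1 were 0.374 and 0.397.

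**Figure D3:**
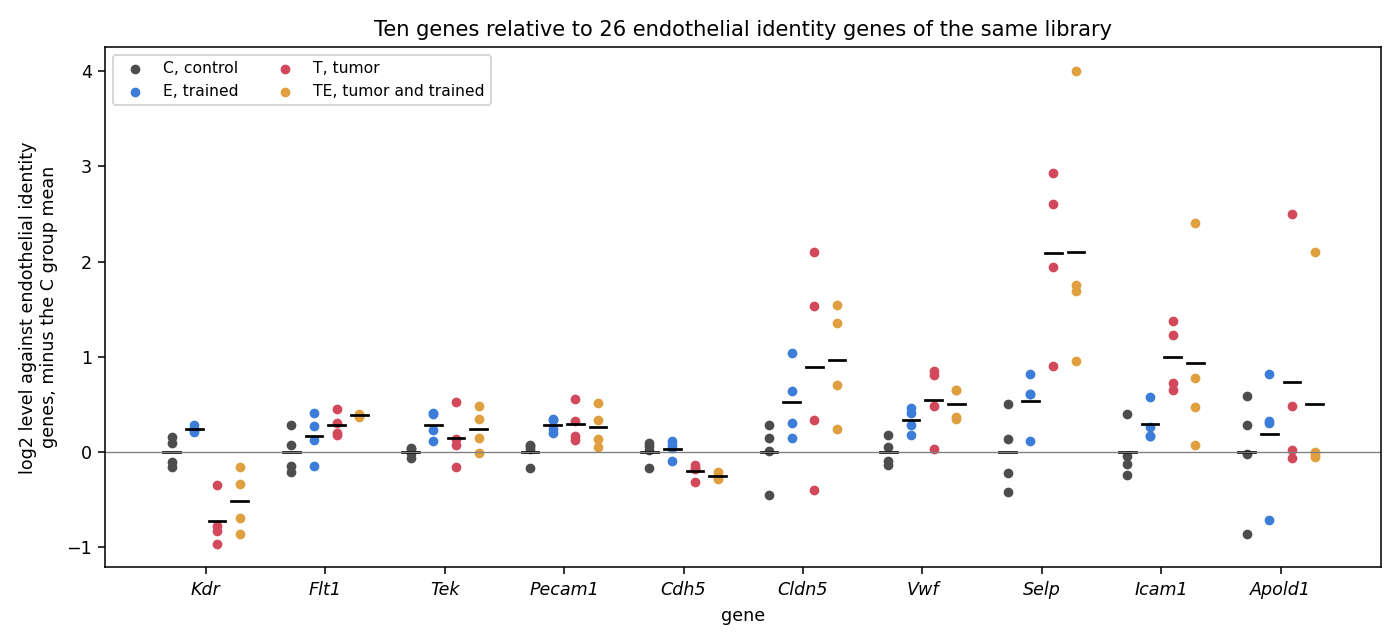
Log2 level of each of the 10 genes relative to the mean of 26 endothelial identity genes of the same library, with the C group mean of each gene set to 0. Points are mice and bars are group means (n = 4 mice a group). The Kdr points of T and TE mice lie under those of E mice, and the Selp points of all tumor-bearing mice lie over those of all tumor-free mice.

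Other genes of the same pathways were read by the tumor average, for which 1.36% of all tested genes passed. Of the 26 endothelial identity genes, 2 rose and 1 fell by edgeR. DESeq2, which called 3% of all genes, called 7 of the 26 (Emcn, Sox17, Robo4, Ecscr, Plvap, S1pr1 and Myct1). Plvap, which forms the diaphragms of fenestrated and venular endothelium, rose by 0.53 (edgeR adjusted p = 0.0436) and S1pr1, a receptor for sphingosine 1-phosphate, by 0.48 (edgeR adjusted p = 0.0421), whereas Emcn, a surface sialomucin of capillaries and veins, fell by 0.40 (edgeR adjusted p = 0.0189). The calls of the genes that rose were close to the threshold. Plvap passed in 3 of 10 other settings and in 3 of the 16 fits without 1 library, and S1pr1 in 4 and 7, against 8 and 16 for Emcn. The median of the list was -0.00299. Of 14 capillary metabolism and transport genes only Cav1, the coat protein of caveolae, passed by edgeR, and DESeq2 also called Lpl and Aqp7. Cav1 fell by 0.32 (edgeR adjusted p = 0.000775), from 494.7 ± 31.7 CPM in C and 439.9 ± 21.0 CPM in E to 371.2 ± 17.2 CPM in T and 373.7 ± 10.2 CPM in TE.

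Of 29 tested VEGF and angiopoietin pathway genes 3 fell and 1 rose, with a list median of -0.00344. Those that fell were Angpt2, the angiopoietin that endothelial cells release to act on Tek (-0.90, edgeR adjusted p = 0.00728), Apln, a peptide of tip cells (-1.85, edgeR adjusted p = 0.0231, passing in 7 of 10 other settings and 12 of the 16 fits without 1 library, at -2.1 to -0.702), and Pdgfb, the growth factor by which endothelial cells recruit pericytes (-0.53, edgeR adjusted p = 0.0179). Angpt2 was at 7.618 ± 1.6 CPM in C, 8.985 ± 2.14 in E, 4.176 ± 1.46 in T and 4.685 ± 0.535 in TE. Foxo1, a transcription factor held back by Akt signaling in endothelial cells and active in muscle fibers as well, rose by 0.47 (edgeR adjusted p = 0.00948), and in T against C by 0.66 (edgeR adjusted p = 0.0195, a call kept in 7 of 11 other settings and 11 of the 16 fits without 1 library). By the tumor average DESeq2 called Angpt2, Apln, Pdgfb and Foxo1, and Hspg2 and Kitl as well.

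Of 18 tested junction genes 2 rose and 2 fell, with a list median of -0.109. Gja5, the connexin of arterial endothelium, rose by 0.82 (edgeR adjusted p = 0.00248) and Cldn15, a claudin, by 0.90 (edgeR adjusted p = 0.0141), whereas Jam3, a junctional adhesion molecule, fell by 0.34 (edgeR adjusted p = 0.0436) and Afdn, an adaptor of adherens junctions, fell by 0.28 (edgeR adjusted p = 0.0389). Jam3 passed in 4 of the 10 other settings and 3 of the 16 fits without 1 library, and Afdn in 8 and 6. Of 27 tested endothelial activation and leukocyte adhesion genes 4 rose and 0 fell by edgeR, with a list median of 0.18. DESeq2 called Il1r1 as well. Lrg1, a secreted glycoprotein that endothelial cells and neutrophils make, rose by 1.14 (edgeR adjusted p = 1.00e-05), from 12.78 ± 0.806 CPM in C and 13.94 ± 1.25 CPM in E to 30.58 ± 5.37 CPM in T and 28.38 ± 6.07 CPM in TE, and it passed in T against C (1.26) and in TE against E (1.03) as well. Bcl3, a partner of NF-κB, rose by 1.39 (edgeR adjusted p = 0.0119), and Tnfrsf1a, the main receptor for TNF, by 0.29 (edgeR adjusted p = 0.0477), the latter in 4 of the 10 other settings and 2 of the 16 fits without 1 library. Sele (E-selectin), which endothelium makes when activated, rose too (edgeR adjusted p = 0.00603), and its counts were 1 in each C library, 0 to 7 in E, 10 to 99 in T and 7 to 191 in TE. With so few counts in C its fitted fold depends on the prior count and is not given. None of the 24 immediate early and shear response genes, the group to which Apold1 belongs, passed by edgeR (3 had an unadjusted p under 0.05, and DESeq2 called Ier3), and the list median was -0.0674. In T against C alone, Gja5 rose by 1.01 (edgeR adjusted p = 0.0147, kept in 7 of the 11 other settings and 14 of the 16 fits without 1 library) and Cav1 fell by 0.41 (edgeR adjusted p = 0.00412). In the same comparison Plvap had 0.79 (edgeR adjusted p = 0.0509), Cldn15 1.06 (edgeR adjusted p = 0.0604) and Bcl3 1.53 (edgeR adjusted p = 0.0740). Of the other genes among the 2 with the smallest p of a list, Robo4 had -0.43 (edgeR adjusted p = 0.0652), Kitl -0.40 (edgeR adjusted p = 0.0741) and Gpihbp1 0.48 (edgeR adjusted p = 0.172), and Junb and Fosl2 had 0.66 and 0.36 (edgeR adjusted p of 0.275 and 0.387). Robo4 and Kitl each passed in 2 of the 11 other settings and 1 of the 16 fits without 1 library, and Gpihbp1 in 0 and 1.

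**Figure D4:**
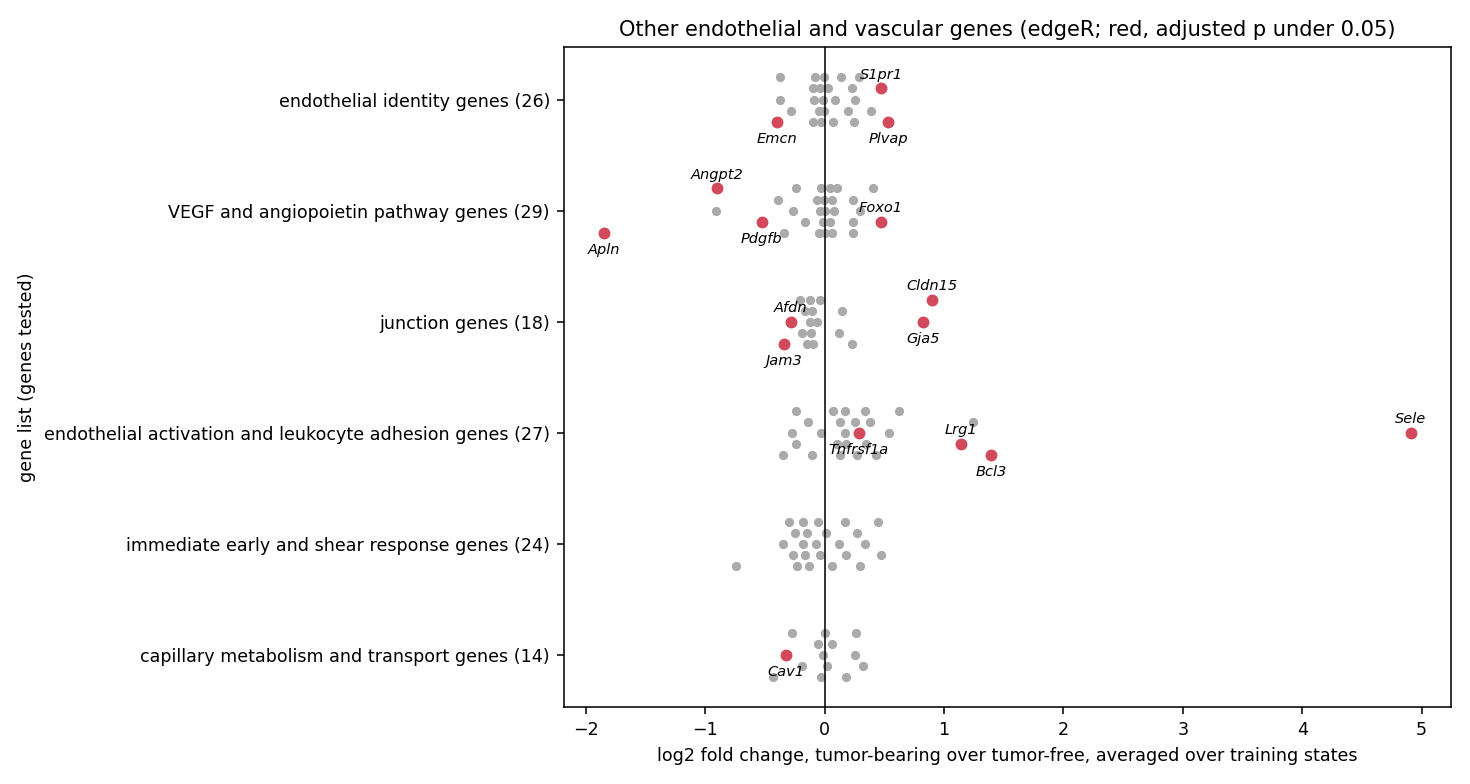
Log2 fold change by the tumor average (tumor-bearing over tumor-free mice, averaged over training states) of the tested genes of 6 endothelial and vascular lists, with the number tested beside each name. Each point is a gene, red points passed edgeR's test and are named. Falling genes are led by Apln (-1.85) and Angpt2 (-0.90), and the far point of Sele rests on counts near 0 in tumor-free mice.

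Markers of other cells were read beside these genes. The 8 tested neutrophil markers were higher by the tumor average in all 8 cases and 6 passed (Csf3r, Ltf, Ngp, Retnlg, S100a8 and S100a9), with sums of 1.59 to 5.33 CPM in C, 1.71 to 6.07 in E, 10.1 to 48.5 in T and 12.9 to 22.1 in TE. Of the 7 tested erythroid markers 5 rose (Alas2, Hba-a1, Hba-a2, Hbb-bs and Hbb-bt, of which the globins are near copies of each other and their counts uncertain), with sums of 225 to 330 CPM in C, 242 to 350 in E, 476 to 528 in T and 558 to 789 in TE. The 11 macrophage and monocyte markers were all higher and 0 passed by edgeR (5 had an unadjusted p under 0.05, and DESeq2 called C1qa and C1qb), with sums of 79.8 to 144.0 CPM in C, 81.8 to 155 in E, 106 to 221 in T and 106 to 188 in TE. In TE against E 0 of the 11 had an unadjusted p under 0.05. Platelets, which also hold Vwf, Selp and Pecam1, gave sums of 4.48 to 7.58 CPM in C, 5.78 to 6.91 in E, 5.75 to 9.34 in T and 5.91 to 6.32 in TE. The 4 platelet markers tested, of 9 listed, had a median log2 difference of 0.736 in T against C and 0.454 by the tumor average. Of them 2 had an unadjusted p under 0.05 each time, and 0 passed by edgeR or DESeq2. Of the 12 pericyte and smooth muscle markers 1 passed by the tumor average, Cspg4, which fell by 0.40 (edgeR adjusted p = 0.0177). In T against C 10 of the 12 were higher and 2 lower (0 with an unadjusted p under 0.05), whereas in TE against E 1 was higher and 11 lower (median -0.322, 8 with an unadjusted p under 0.05, 0 passing by edgeR, and Cspg4 and Acta2 called by DESeq2). The fibroblast markers were lower for 7 of 7 genes in TE against E (median -0.438, 5 with an unadjusted p under 0.05, 0 passing by edgeR or DESeq2). The part of these cells in the levels of the 10 genes was not tested beyond these values.

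**Figure D5:**
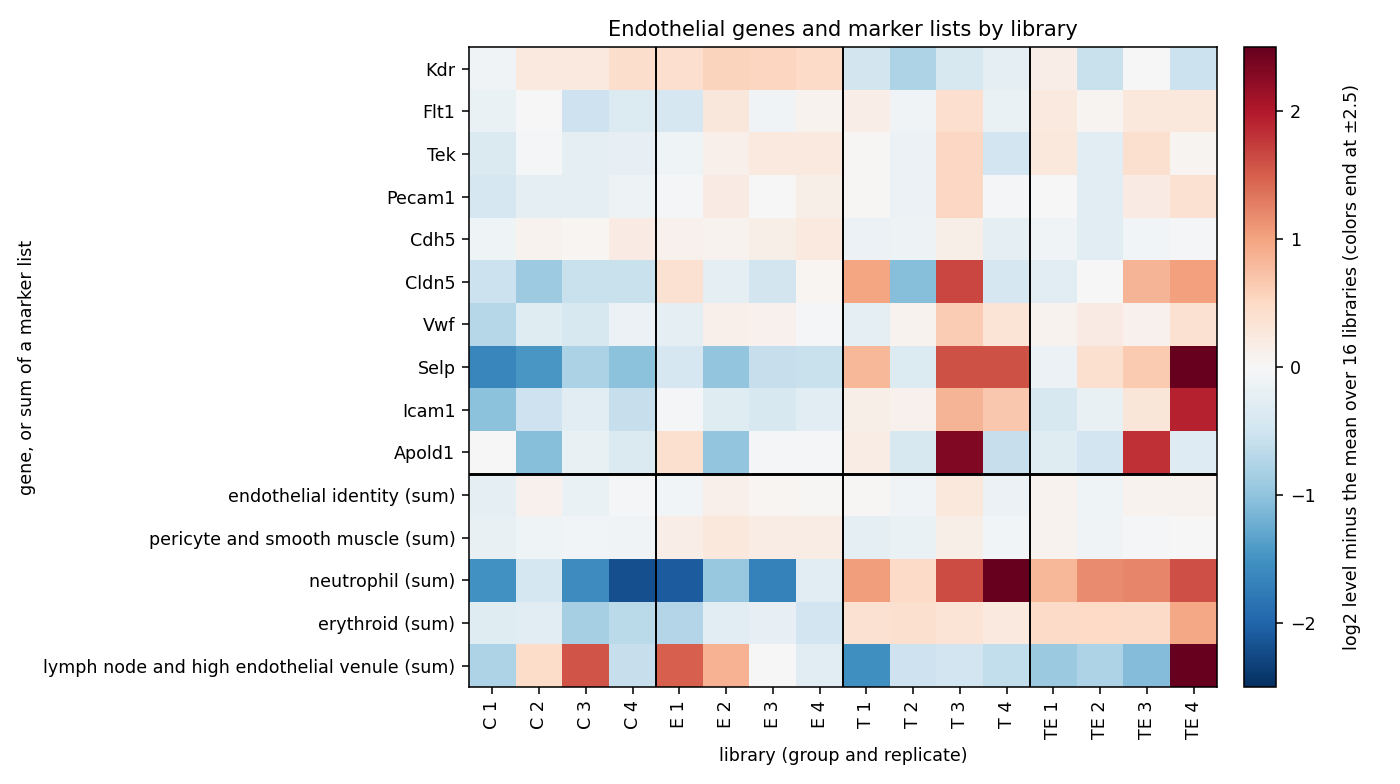
Level of the 10 genes and of 5 marker lists in each library, as log2 minus the mean over the 16 libraries, with colors ending at ±2.5. Black lines divide the groups. Kdr is low in the T columns and in TE replicates 2 and 4, the neutrophil and erythroid sums are high in the T and TE columns, and TE replicate 4 is high in Selp, Icam1 and the lymph node sum.

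Within groups, the 10 genes varied in part together. Over the 45 pairs of them, the Pearson correlation of the deviations from the group means over 16 libraries had a median of 0.387, and 17 pairs were over 0.5. The closest pair was Selp and Icam1 (0.92 within groups, 0.942 over the 16 libraries). TE replicate 4 is the highest library for both. Pecam1 and Cdh5 had 0.827 within groups, and Kdr and Selp had -0.0926 within groups and -0.617 over the libraries. The points share libraries and groups, so these values are a description.

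Across all tested genes, those whose log2 CPM followed each of the 10 most closely over the 16 libraries were ranked by the Pearson correlation over the libraries, which includes the differences between groups. For Kdr they were Kctd12b (0.908), Prag1 (0.905) and Flvcr2 (0.878), for Flt1 Slc43a3 (0.944), Ceacam1 (0.903) and Adcy4 (0.879), and for Tek She (0.916), Elk3 (0.900) and Prdm2 (0.896). For Pecam1 they were Tshz2, G2e3 and Atp2a3, for Cdh5 Ncald, Nalcn and Perp, for Cldn5 Tgif1, Rnf125 and Mylip, and for Vwf Slco2a1, Agfg2 and Actn1, with correlations between 0.857 and 0.908. Nalcn averaged only 0.1422 CPM, near the level of 3 counts in a library, and Flvcr2, named for Kdr, 0.8327 CPM. Selp was followed by Icam1 (0.942), Csf2rb (0.931) and Sele (0.928), and Icam1 by Selp, D17H6S56E-5 and Il17ra (0.908 each for the latter). Apold1 was followed by Sik1 and Csrnp1 (0.897 each, and 0.942 and 0.919 within groups) and by Shank3 (0.832). Sik1 and Csrnp1 are induced early after many stimuli.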

How the data were processed

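RNA from the gastrocnemius of 16 mice was sequenced, and the sample labels gave the group and replicate number of each library. According to the submitters' processing notes and the methods of the study, reads were trimmed with fastp 0.20.1, aligned to GRCm39 with HISAT2 2.1.0 and counted with HTSeq 0.11.2. The annotation release and the strand setting were not given in the sources used here, so reads of a gene and of an antisense gene cannot be told apart. Annotated genes overlapping the 10 on the other strand held at most 18 counts in total. The authors deposited raw counts per gene and FPKM values, in which the counts are divided by the length of the gene and the total of the library. The count test was that of edgeR 4.0.16, run in R 4.3.3 (filterByExpr, TMM factors, 1 coefficient per group over all 16 libraries, glmQLFTest, two-sided) in 7 contrasts, with Benjamini-Hochberg adjustment over 14749 tested genes per contrast. A gene passed at an adjusted p under 0.05. The SE is the log2 fold change divided by the square root of F. Counts were also simulated from the gene means and totals of all 16 libraries. The dispersion was 0.05 for every gene, and the changes were put into T and TE. In T against C over 14749 genes, 61 of 100 genes changed by a log2 of 1 and 97 of 100 changed by 2 were recovered. There were 8 false calls, and 0 calls without any change. Selp, Cldn5 and Apold1 spread more than this among tumor-bearing mice, so these rates do not describe them. CPM values use TMM factors, and log2 CPM a prior count of 2.

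The alternatives were DESeq2 1.42.0 (the tool the study names), DESeq2 size factors, no low count filter, a replicate block, a fit of only the groups compared, edgeR's robust option, limma 3.58.1 on log2(FPKM + 1) and log2(FPKM + 0.1) of genes over 0.5 FPKM and on log2(FPKM + 1) without a filter, the 3 libraries high in lymph node markers left out, and each replicate left out. A fit without T replicate 3 and TE replicate 4, and group means and relative levels without single libraries that stood apart, were chosen after seeing the data. The 10 genes and the gene lists were chosen with earlier results of these data known. Besides the 10, the text names listed genes that passed in any contrast, the 2 of each vascular list with the smallest p in T against C, and the 3 most alike to each of the 10. Positions come from GENCODE for GRCm39. Replicate numbers stand for different mice. Copies made by PCR count like separate molecules, and counting floors cover counting error only. Plots were made in Python 3.11.15 with matplotlib 3.10.9.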

Additional observations from a re-analysis of the deposited data

Results flagged for a closer look

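Among the 40 sets of 4 mice (10 genes in 4 groups), 6 held a mouse whose gap to its nearest neighbor exceeded Dixon's 95% critical value, a rule that chance alone meets in about 1 of 20 sets. TE replicate 4 was the highest of its group for Selp (51.2 CPM) and for Icam1 (31.1 CPM). The same library had the highest sum of lymph node and high endothelial venule markers, 130 CPM. Apold1 was highest in T replicate 3 (32.6 CPM) and in TE replicate 3 (23.2 CPM), the libraries with the highest sums of immediate early and shear response genes, closely followed by E replicate 1 (1240 against 1230 CPM). Cldn5 was lowest in C replicate 2 (14.7 CPM), and Flt1 was lowest in TE replicate 2 (169 CPM), in groups whose other mice lay close together. The part of these libraries' other features in the values was not tested.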

How the results depend on the processing

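The alternatives were run on 47 log2 differences: those of all 10 genes in T against C, TE against E, E against C and the tumor average, and 7 named ones in the other comparisons (Kdr in each, Selp, Icam1 and Apold1 in TE against T, and the Cldn5 interaction). Of the 752 values without 1 replicate, 705 kept their direction and their side of the threshold, 23 changed sign, 11 lost a call and 13 gained one. Of 504 values from other alternatives 457 kept both, 17 changed sign, 9 lost a call and 21 gained one. Of the 10 genes, those that passed in T against C numbered 1, and 3 with DESeq2 (Kdr, Vwf and Selp), 3 without the low count filter (the same genes), 0 with the robust fit, 0 with limma on log2(FPKM + 1), 0 on log2(FPKM + 0.1) and 0 on log2(FPKM + 1) without a filter, 2 without C 3, E 1 and TE 4 (Selp and Icam1), and 0 to 3 without 1 replicate. With only the groups compared and without T 3 and TE 4 the number stayed 1, but Selp passed and Kdr did not. The Kdr call was kept in 3 of 11 other settings. In TE against E they numbered 0, and 2 with DESeq2, 2 without the filter (Kdr and Selp both times) and 0 to 1 without 1 replicate. By the tumor average they numbered 2, and 5 with DESeq2 (Kdr, Cdh5, Vwf, Selp and Icam1), 4 without the filter (Kdr, Vwf, Selp and Icam1) 3 without T 3 and TE 4 (Kdr, Cdh5 and Selp), 1 with limma without a filter (Kdr) and 2 to 3 without 1 replicate. Kdr by the tumor average passed in every alternative run. The causes of these moves were not tested.

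Same-numbered mice had deviations that correlated between -0.241 and 0.214 over 24 pairs, 5 of them over 0.1. These values show no clear pairing by number, and whether same-numbered mice shared a step of handling was not tested. With the replicate block, 2 of the 10 passed in T against C (Vwf and Selp) and Kdr had -0.688 (edgeR adjusted p = 0.0615), and 3 passed by the tumor average (Kdr, Vwf and Selp).

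Some values that had not passed changed sign. Tek in TE against E became 0.000232 with DESeq2, 0.000565 with its size factors, 0.00138 without the filter, 0.0215 without T 3 and TE 4, and ranged from -0.103 to 0.116 without 1 replicate. Pecam1 in TE against E became -0.0381 with limma on log2(FPKM + 1), -0.0391 on log2(FPKM + 0.1), -0.0381 without a filter, -0.116 without C 3, E 1 and TE 4, -0.0772 without T 3 and TE 4, and ranged from -0.0721 to 0.134 without 1 replicate. Apold1 in TE against E ranged from -0.283 to 0.877. In TE against T, Selp became -0.761 without C 3, E 1 and TE 4 and -0.552 without T 3 and TE 4 (-0.758 to 0.685 without 1 replicate), and Icam1 -0.0156 with limma on log2(FPKM + 0.1), -0.543 without C 3, E 1 and TE 4 and -0.397 without T 3 and TE 4 (-0.54 to 0.501 without 1 replicate). Apold1 in TE against T became 0.998 without T 3 and TE 4 (-1.29 to 0.791 without 1 replicate). The Kdr interaction became 0.055 and 0.109 without C 3, E 1 and TE 4 and without T 3 and TE 4 (-0.16 to 0.0941 without 1 replicate). At these depths all 10 genes lay above the counting floor, and the spread between 4 mice limits precision.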
